A study of Homo sapiens with 6 samples.

Results

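The MYC network is a family of transcription factors that share a basic helix-loop-helix leucine zipper and bind E-box DNA as dimers, and 10 of its genes (MYC, MYCN, MYCL, MAX, MXD1, MXD3, MXD4, MXI1, MNT and MLX) are described here in hemogenic endothelial cells treated with alpha lipoic acid. They were taken by gene symbol from the 29436 symbols of the count table, and all 10 were found and passed the filter on low counts that left 13780 genes to be tested. H1 human embryonic stem cells, an established line, were induced towards blood on AGM-S3 stroma. The treated group had 100 µg/ml alpha lipoic acid in the inducing medium and the untreated group had none, with no other agent or genetic change named. CD34+CD43-KDR+CD144+ cells were sorted on day 8, and each of the 3 lipoic acid and 3 untreated libraries was amplified polyA cDNA of 1000 cells. All libraries come from 1 cell line, and the sources used here do not say whether replicates were separate cultures.

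MYC, MYCN and MYCL activate transcription as dimers with MAX, which has no activation domain of its own. The MXD proteins, MXI1 and MNT compete for the same partner and recruit SIN3 and histone deacetylase corepressors to E-boxes. MLX is a MAX-like protein that pairs with MondoA (MLXIP) and ChREBP (MLXIPL), which respond to sugars, and with some of the repressors. In many cell types MYC accompanies growth and division, and MXD members accompany quiescence and differentiation. In blood stem cells MYC and MYCN are known to act together in survival and self-renewal.

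The canonical E-box of these dimers is CACGTG, a palindrome, and CACGCG is a weaker form. Both were searched on both strands in the RefSeq promoter windows of the members other than MYC (build GRCh38.p14, 250 bases before to 50 after a gene start), and the matches of the forms did not share bases. CACGTG was present in 3 of the 12 windows of these 9 members, those of MXD4, MNT and MLX, against 7.26% of all 35116 windows, and CACGCG, which 11.4% of all windows hold, was present at MXD3 and at 1 of 3 starts of MXI1. The windows of the members with CACGTG and the MXI1 window with CACGCG are printed to show where the factors' own recognition letters lie (capitals), in lower case otherwise and 5′ to 3′ on the gene's strand. A match is a description of the letters and does not show that the site is bound.
MXD4, chr4:2262060-2262359, minus strand: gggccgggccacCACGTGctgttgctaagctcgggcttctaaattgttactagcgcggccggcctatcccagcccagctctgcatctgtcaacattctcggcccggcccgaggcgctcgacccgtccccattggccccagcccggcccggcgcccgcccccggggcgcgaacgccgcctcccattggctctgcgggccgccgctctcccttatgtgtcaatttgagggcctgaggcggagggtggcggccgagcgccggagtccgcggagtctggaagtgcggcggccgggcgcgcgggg
MNT, chr17:2401011-2401310, minus strand: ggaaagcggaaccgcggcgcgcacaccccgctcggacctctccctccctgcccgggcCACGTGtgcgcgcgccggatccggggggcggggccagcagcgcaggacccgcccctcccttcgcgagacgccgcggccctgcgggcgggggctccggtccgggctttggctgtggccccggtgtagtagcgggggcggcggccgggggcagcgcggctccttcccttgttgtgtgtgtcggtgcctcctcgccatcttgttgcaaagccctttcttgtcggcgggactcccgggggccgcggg
MLX, chr17:42566850-42567149, plus strand: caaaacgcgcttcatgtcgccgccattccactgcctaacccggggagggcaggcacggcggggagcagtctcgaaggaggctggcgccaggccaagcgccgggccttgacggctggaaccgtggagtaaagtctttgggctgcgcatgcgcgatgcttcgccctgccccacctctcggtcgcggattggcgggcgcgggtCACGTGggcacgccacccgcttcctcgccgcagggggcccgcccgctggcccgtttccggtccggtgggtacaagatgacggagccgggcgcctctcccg
MXI1, chr10:110225746-110226045, plus strand: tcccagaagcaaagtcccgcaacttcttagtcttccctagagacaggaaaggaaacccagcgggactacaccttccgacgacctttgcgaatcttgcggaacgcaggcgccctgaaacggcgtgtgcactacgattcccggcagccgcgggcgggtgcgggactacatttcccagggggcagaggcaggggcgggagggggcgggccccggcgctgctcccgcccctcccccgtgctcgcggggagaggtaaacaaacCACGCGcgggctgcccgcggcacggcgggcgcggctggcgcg
The CACGTG of MXD4 starts at base 13 of its window, that of MNT at base 58 and that of MLX at base 201. Among these 3 genes, MXD4 was lower with lipoic acid while MNT and MLX were not called, as given with their values below.

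Total counts ran from 30041494 to 41351951 per library. Even numbers made up 99.1% to 99.3% of the counts above 0 in the 3 lipoic acid libraries and in untreated replicate 1, but 52.0% in each of untreated replicates 2 and 3, so member values are also given within the 4 libraries of even counts, where untreated replicate 1 stands alone as the control and its spread is taken to be that of the lipoic acid libraries. There 37.3% of 14740 genes were called. Over all tested genes 47.4% were called at a Benjamini-Hochberg adjusted p under 0.05 by edgeR's quasi-likelihood test, 24.2% higher and 23.3% lower with lipoic acid, and 59.1% had groups that did not overlap. With a trend in GC content and exonic length removed and the replicate number as a block, 40.9% of calls were rises, against 50.9% without these terms. The summed level of 10 endothelial markers was 12714 to 13243 CPM with lipoic acid and 15180 to 15380 CPM in untreated libraries. The summed endoderm and hepatic markers (10 genes) were at 148 to 220 CPM with lipoic acid and 27.5 to 40.3 CPM untreated, and the epithelial markers (7 genes) at 409 to 474 CPM and 226 to 249 CPM. Pluripotency markers (9 genes) summed to 93.5 to 96.3 CPM with lipoic acid and 81.4 to 85.9 CPM untreated, with POU5F1 and SOX2 at 0 in every library, and the blood and myeloid list (8 genes) to 240 to 266 CPM and 294 to 310 CPM, with PTPRC, SPN, MPO and SPI1 at 0 in every library. Neural markers (6 genes) summed to 185 to 207 CPM with lipoic acid and 259 to 291 CPM untreated, and megakaryocytic markers (6 genes) to 6.18 to 7.25 CPM and 0.964 to 2.09 CPM, with PPBP and TUBB1 at 0 in every library. Each sum is weighted to its most abundant genes. Endothelial markers had 2 called higher and 6 lower, tested pluripotency markers 3 and 1, and tested neural markers 1 and 2. Among the neural markers MAP2 rose 2.91-fold, while STMN2 and NES fell 1.55-fold and 1.40-fold. In the blood and myeloid list 0 were called higher and 2 lower, and LAPTM5 alone averaged 244 CPM with lipoic acid and 290 CPM untreated. The endoderm and hepatic, epithelial and megakaryocytic lists had 0 called lower. Mesenchymal markers (10 genes) had 1 called higher and 5 lower, the falls numbering 3 without lipoic acid replicate 2. The rise was absent without lipoic acid replicate 1 or untreated replicate 1 or 3. Mesenchymal sums overlapped, at 1477 to 2026 CPM with lipoic acid and 1925 to 2557 CPM untreated. Tested cardiac markers had 2 called higher and 1 lower, with 0 higher when any lipoic acid replicate was left out. Of 2 tested erythroid markers 1 was called higher. Mitochondrially encoded genes took 4.39% to 5.02% of counts with lipoic acid and 2.45% to 2.82% untreated. These differences run beside every result that follows, and their part in it was not tested. In a bulk sample, fewer cells of a type and less RNA per cell cannot be told apart.

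Of the 10 members, 4 rose with lipoic acid (MYC, MXI1, MXD1 and MXD3), 1 fell (MXD4) and 5 did not pass (MYCN, MYCL, MAX, MNT and MLX). The 5 of 10 called compare with 47.4% of all tested genes, so the number of calls is near the background. In 6 of the 10 the groups did not overlap, against 59.1% of all tested genes. Of the 10 members 4 were higher without overlap, against 30.4% of all tested genes. MXD4 and MLX were lower without overlap, as were 28.8% of all tested genes. An exact two-sided permutation test of 3 against 3 libraries cannot go below p = 0.1, which these 6 members reached.

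**Figure D1:**
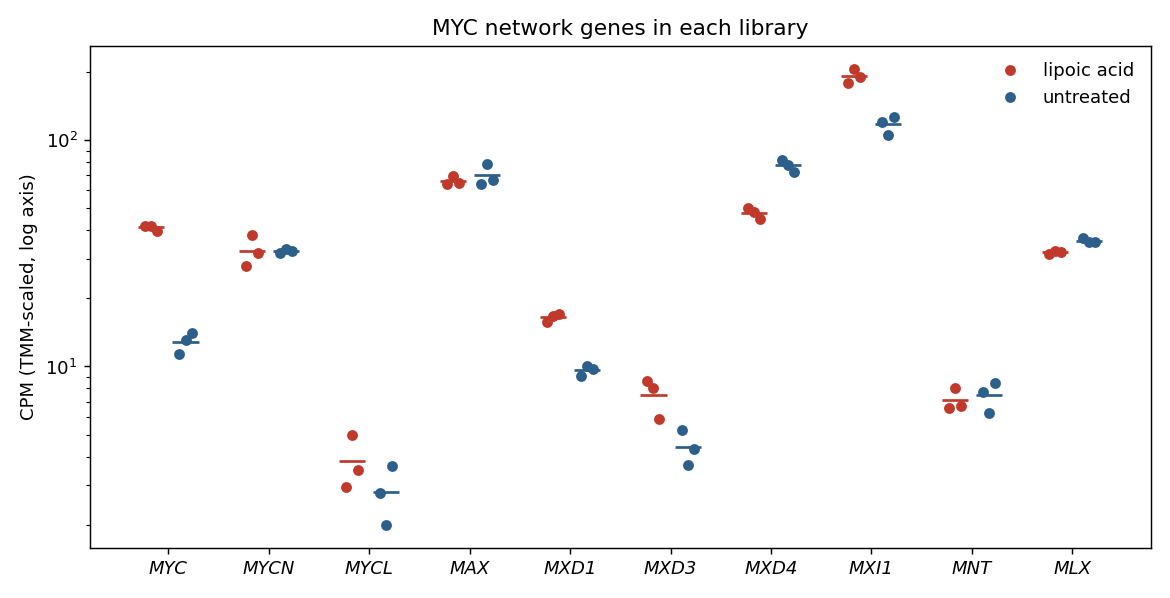
CPM (TMM-scaled counts, log axis) of each MYC network gene, with 1 point per library and a bar at the mean of 3 libraries, lipoic acid left of untreated for each gene. MYC, MXD1, MXD3 and MXI1 sit higher with lipoic acid and MXD4 and MLX lower, each without overlap, though MLX was not called. The MYCN, MYCL, MAX and MNT groups overlap.

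Among the activators, MYC alone was called. MYC (chromosome 8, 127735434 to 127741434, GRCh38) had 41.9, 41.8 and 39.9 CPM (counts scaled for library size) in the lipoic acid libraries and 11.3, 13.1 and 14.0 CPM in the untreated ones. Every lipoic acid library was above every untreated library. MYC averaged 41.2 ± 1.13 CPM with lipoic acid and 12.8 ± 1.36 CPM untreated (SD, n = 3 each), a fitted 3.22-fold rise (log2 1.69, SE 0.10, edgeR adjusted p = 1.52e-06). It was the member with the largest change, and 5.20% of tested genes had a log2 fold change at least as high. Within the 4 libraries of even counts the rise was 3.64-fold (adjusted p = 5.04e-07).

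MYCN, the paralog that is prominent in embryonic and neural progenitors, had 27.7, 38.0 and 31.7 CPM with lipoic acid and 31.9, 33.0 and 32.3 CPM untreated. The lipoic acid libraries lay on either side of the untreated ones. The MYCN log2 fold change was 0.00 with a 95% interval of -0.24 to 0.25 (edgeR adjusted p = 0.988), so a change of the size seen for MYC lies outside the interval. MYCNOS, which lies antisense to MYCN (chromosome 2, 15940564 to 15947007) over 0.0377 of its exons, reached at most 0.133 CPM in any library. MYCL, the third paralog, was the lowest activator, at 2.94, 5.0 and 3.48 CPM with lipoic acid and 2.77, 2.0 and 3.62 CPM untreated, with overlapping groups (log2 0.44, 95% interval -0.23 to 1.11, edgeR adjusted p = 0.249). The MYCL interval holds both no change and a rise of over 2-fold.

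The shared partner MAX did not pass. It had 64.0, 69.6 and 64.5 CPM with lipoic acid and 64.2, 78.9 and 66.7 CPM untreated (log2 -0.08, 95% interval -0.28 to 0.11, edgeR adjusted p = 0.446). The MAX groups overlapped, and untreated replicate 2 was the highest library. MLX, the MAX-like partner, had 31.5, 32.4 and 32.2 CPM with lipoic acid and 37.1, 35.6 and 35.4 CPM untreated. Every lipoic acid library was lower, but the difference was small (log2 -0.17, 95% interval -0.33 to -0.01) and was not called (edgeR adjusted p = 0.0709), except with the trend in GC content and length removed, where MLX was called lower (log2 -0.25, adjusted p = 0.0205). PSMC3IP covers 0.181 of the exonic length of MLX on the opposite strand and was itself at 2.27 ± 0.247 CPM with lipoic acid and 2.49 ± 0.465 CPM untreated.

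The repressors that pair with MAX split. MXI1 (chromosome 10, 110207605 to 110287365), also known as a target of the hypoxia factor HIF1, had 180 CPM, 207 CPM and 190 CPM with lipoic acid and 120 CPM, 105.5 CPM and 127 CPM untreated. The groups did not overlap, and MXI1 rose 1.63-fold to 192 ± 13.9 CPM in lipoic acid libraries, against 117.5 ± 10.98 CPM in untreated libraries (SD, n = 3 each, log2 0.71, SE 0.08, edgeR adjusted p = 0.0001045). MXD1 (chromosome 2, 69897688 to 69942945), the founding MAD repressor that appears in terminal differentiation, had 15.7, 16.6 and 17.1 CPM with lipoic acid and 9.11, 10.04 and 9.71 CPM untreated. Its groups were apart by more than the spread of either, with a 1.71-fold rise (log2 0.78, SE 0.12, edgeR adjusted p = 0.000488). Within the 4 libraries of even counts MXI1 rose 1.60-fold (adjusted p = 0.00012) and MXD1 1.81-fold (adjusted p = 0.00116).

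MXD3, the member of the MXD group known for expression in S phase, had 8.67, 8.04 and 5.85 CPM with lipoic acid and 5.23, 3.66 and 4.32 CPM untreated. The groups were separated only by the gap between lipoic acid replicate 3 and untreated replicate 1. The 1.70-fold rise of MXD3 (log2 0.77, SE 0.22, edgeR adjusted p = 0.0148) lost its call when lipoic acid replicate 1 was left out (adjusted p = 0.0657) or within the 4 libraries of even counts (1.44-fold, adjusted p = 0.136). MXD3 (chromosome 5, 177301461 to 177312757) shares 0.180 of its exonic length with RAB24 on the same strand and 0.225 with PRELID1 on the other, and the strand setting of the counting is not given in the sources used here. RAB24 did not pass (2.23 ± 0.424 CPM with lipoic acid and 2.40 ± 0.218 CPM untreated, adjusted p = 0.768) and PRELID1 fell (8.86 ± 0.826 and 15.5 ± 2.31 CPM, adjusted p = 0.00162).

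MXD4 (chromosome 4, 2247432 to 2262294), a repressor found in differentiated and resting cells, moved opposite to the other MXD members. It had 50.1, 48.0 and 45.0 CPM with lipoic acid and 82.1, 77.9 and 72.7 CPM untreated, with no overlap. MXD4 fell to 47.7 ± 2.57 CPM in lipoic acid libraries, against 77.6 ± 4.69 CPM in untreated libraries (SD, n = 3 each, 1.63-fold, log2 -0.70, SE 0.07, edgeR adjusted p = 6.16e-05), and 1.72-fold within the 4 libraries of even counts (adjusted p = 5.43e-05). MNT, the widely expressed antagonist of MYC, had 6.58, 8.04 and 6.72 CPM with lipoic acid and 7.69, 6.25 and 8.48 CPM untreated, with overlapping groups (log2 -0.07, 95% interval -0.47 to 0.32, edgeR adjusted p = 0.759). MNT (chromosome 17, 2384060 to 2401118) has 0.122 of its exonic length under a gene on the opposite strand.

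**Figure D2:**
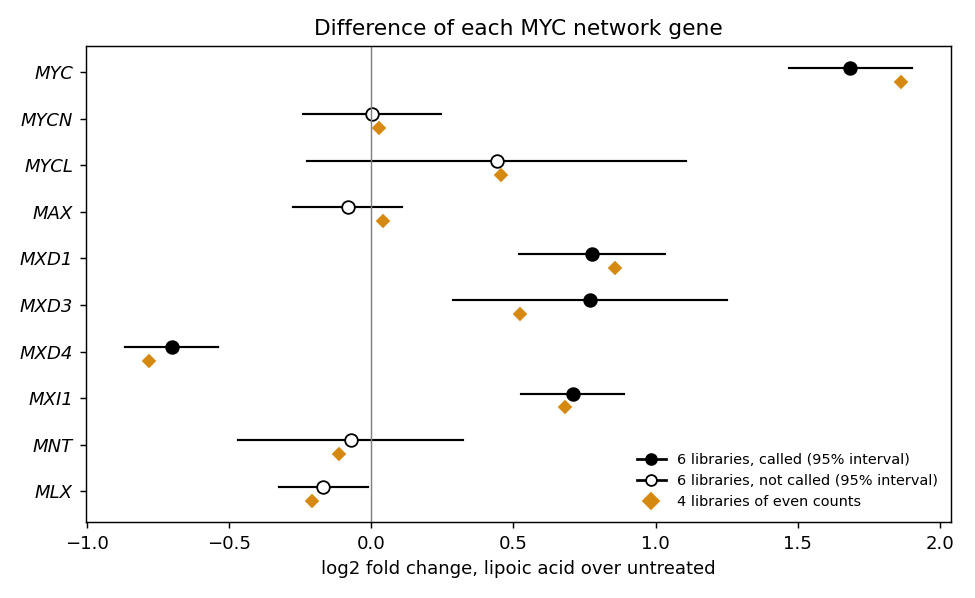
Fitted log2 fold change of each MYC network gene, lipoic acid over untreated, with 95% intervals over 6 libraries (filled circles called at adjusted p under 0.05, open circles not called) and, as diamonds, the value within the 4 libraries of even counts. MYC stands at 1.69, MXD1, MXD3 and MXI1 between 0.71 and 0.78, and MXD4 at -0.70.

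Levels of different genes were compared as CPM per kilobase of exonic length. MXI1 was the highest member in both groups, at 41.7 ± 3.01 CPM per kb with lipoic acid and 25.5 ± 2.38 CPM per kb untreated (SD, n = 3 each). MAX followed, at 14.9 ± 0.698 and 15.8 ± 1.77 CPM per kb. MYC was the third member with lipoic acid (13.7 ± 0.376 CPM per kb) and the sixth in untreated libraries (4.27 ± 0.454 CPM per kb), below MYCN, MXD4 and MLX there. With lipoic acid the ranges of MYC and MYCN (12.5 ± 2.0 CPM per kb) overlapped on this length, and with the longest transcript as length MYC was above MYCN in every lipoic acid library. MXD4 was in place 6 with lipoic acid (6.75 ± 0.363 CPM per kb) and in place 4 untreated (10.99 ± 0.665 CPM per kb). With the longest transcript as length, MXD4 was in place 3, MLX in place 4 and MYCN in place 5 untreated, and MXD3 passed MXD1 in both groups (place 7 against 8). The MXD3 and MXD1 ranges overlapped on that length in both groups, with MXD1 higher in lipoic acid replicate 3 and untreated replicate 2. The lowest members were MXD1, MXD3, MNT and MYCL, between 0.752 and 2.59 CPM per kb with lipoic acid and between 0.552 and 1.51 CPM per kb untreated. Of the neighbouring members in this order, only MYC and MYCN and MNT and MYCL overlapped in range with lipoic acid, and only MNT and MXD3 and MXD3 and MYCL untreated.

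On this scale MYC supplied 55.4%, 47.1% and 50.8% of the summed transcripts of MYC, MYCN and MYCL in the lipoic acid libraries and 22.8%, 25.1% and 26.2% in the untreated ones. MYCN thus held most of the activator transcripts in every untreated library. Among the 5 repressors MXI1 made up 78.2% ± 1.47 with lipoic acid and 64.1% ± 2.53 untreated, and MXD4 12.7% ± 1.06 and 27.8% ± 2.51 (SD, n = 3 each). The 3 activators summed to 27.0 ± 2.27 CPM per kb with lipoic acid and 17.3 ± 0.638 CPM per kb untreated, and the 5 repressors to 53.3 ± 3.10 and 39.7 ± 2.40 CPM per kb. Activators were thereby 33.1%, 34.2% and 33.4% of the 8 MAX-binding genes in lipoic acid libraries and 28.8%, 32.0% and 30.2% in untreated libraries, without overlap. Both sides of the family had higher summed transcripts with lipoic acid, and the share moved less than its parts. These are shares of RNA and not of protein.

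**Figure D3:**
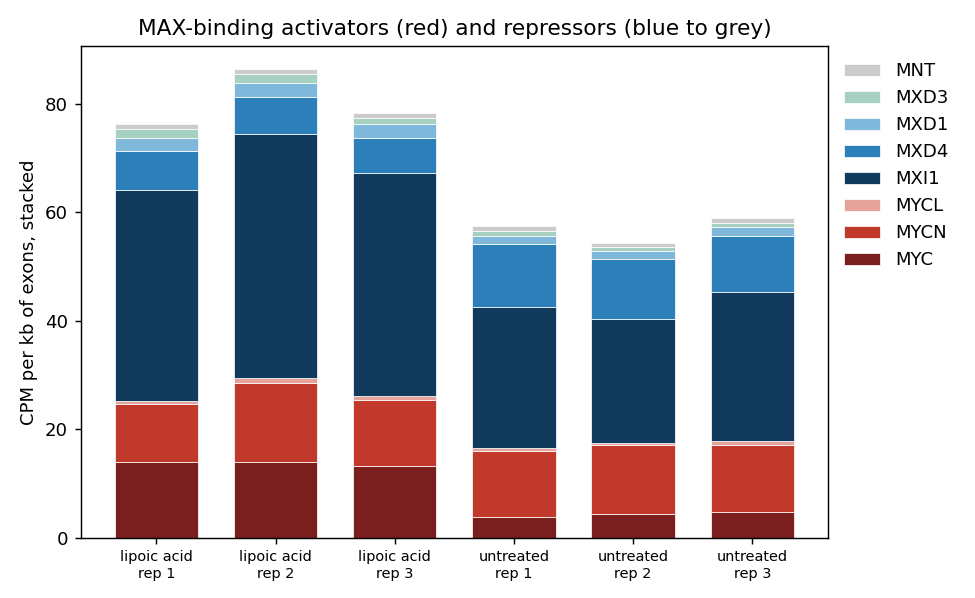
Stacked level of the 3 activators (reds) and 5 repressors (blues to grey) that bind MAX, in CPM per kb of exons, in each of the 3 lipoic acid and 3 untreated libraries. MYC and MXI1 are larger and MXD4 smaller in every lipoic acid library, while MYCN keeps a similar height.

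The genes whose profile over the 6 libraries was closest to MYC, MXD1, MXD3 or MXD4 were found by the root mean square difference of centred log2 CPM among 9780 tested genes that averaged 5 CPM or more. FILIP1L (0.05 log2 units) and HSPA5 (0.09), the main chaperone of the endoplasmic reticulum, were nearest to MYC. FILIP1L had 29.7 ± 0.404 CPM with lipoic acid and 9.51 ± 0.618 CPM untreated (SD, n = 3 each). TMEM135 and IMPA2 were nearest to MXD1 (0.03 and 0.04 log2 units), and BGN and PRKACA to MXD4 (both 0.03). The nearest to MXD3 were ELF2 and ABTB1, both 0.12 log2 units away, so MXD3 had no neighbour as close as those of MYC, MXD1 and MXD4. MXD3 also had fewer counts than these 3 genes in every library (110 to 348). The part of counting noise in its larger distance was not tested.

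Of the 2 tested partners outside the member list, 0 rose and 1 fell, and 0 were higher at an unadjusted p under 0.05 by edgeR or called higher by DESeq2 or limma voom. MLXIP, which encodes MondoA, fell 1.24-fold, to 140 ± 6.28 CPM in lipoic acid libraries, against 173 ± 9.72 CPM in untreated libraries (edgeR adjusted p = 0.00297). MGA, a large dual-domain MAX partner, did not pass (33.0 ± 0.294 and 28.5 ± 6.11 CPM, adjusted p = 0.221), and MLXIPL was below 0.5 CPM in every library and was not tested. Of the glucose-responsive MondoA targets, ARRDC4 fell 1.21-fold (86.2 ± 3.23 and 104 ± 7.98 CPM, adjusted p = 0.0117), a call absent without lipoic acid replicate 1 (adjusted p = 0.0628) and within the 4 libraries of even counts (adjusted p = 0.188). TXNIP, the other target, had 420 ± 10.9 CPM with lipoic acid and 460 ± 22.8 CPM untreated (edgeR adjusted p = 0.0682). Both targets were called lower with the replicate block, with the GC and length trend removed (with and without that block), with limma voom and without untreated replicate 1, and 0 were called within the 4 libraries of even counts or without lipoic acid replicate 1.

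Coactivators of the network were called in both directions, while 20.0% of the corepressor genes were called, beside 47.4% of all tested genes. Of 16 coactivators 4 rose, 4 fell and 8 were not called. Their median log2 fold change was -0.00478, beside -0.00810 over all tested genes. EP400 rose 1.84-fold and TRRAP 1.29-fold, both subunits of the TIP60 acetyltransferase complex, while ACTL6A, another subunit, fell 1.39-fold (edgeR adjusted p = 0.000142, 0.00399 and 0.000702). TRRAP was not called with the GC and length trend removed (adjusted p = 0.0544). Without lipoic acid replicate 2 only 2 coactivators rose and 2 fell, and without lipoic acid replicate 3 only 2 rose. With the GC and length trend removed 1 coactivator rose and 4 fell, and 2 rose with the block besides or within the 4 libraries of even counts. Of 10 SIN3, NCOR and histone deacetylase corepressor genes 2 rose, NCOR1 (1.25-fold, not called with the GC and length trend removed, adjusted p = 0.0584) and RBBP4 (1.42-fold), 0 fell and 8 were not called (median 0.08). By edgeR 0 of these were lower at an unadjusted p under 0.05, and DESeq2 and limma voom called 0 lower.

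Of 20 genes that control MYC protein turnover 8 rose, 2 fell and 10 did not pass (median log2 0.19, beside -0.01 over all tested genes), so 10 of 20 were called, near the 47.4% of all tested genes. Within the 4 libraries of even counts 4 rose and 1 fell, and the falls numbered 1 without lipoic acid replicate 2 or 3 or untreated replicate 1 or 3. PPP2R5A, a phosphatase subunit that destabilises MYC, rose 1.35-fold, to 117 ± 2.88 CPM in lipoic acid libraries, against 87.3 ± 3.10 CPM in untreated libraries. TRIM32, a ubiquitin ligase, rose 1.49-fold and USP28, which removes ubiquitin from MYC, 1.38-fold. FBXW7, the best known ligase for MYC, did not pass. Of 7 tested genes of the loci and RNA regulators 4 rose and 0 fell (median 0.26), and 0 were lower at an unadjusted p under 0.05 by edgeR or called lower by DESeq2 or limma voom. Of these 7 genes 57.1% were called, beside 47.4% of all tested genes. PVT1, the long noncoding RNA gene next to MYC, had 20.4, 16.1 and 18.5 CPM with lipoic acid and 13.6, 9.54 and 11.5 CPM untreated. The PVT1 groups did not overlap, and it rose 1.59-fold (edgeR adjusted p = 0.00495). LIN28A and IGF2BP2, which bind RNA, rose 1.68-fold and 1.2-fold, IGF2BP2 not being called with the GC and length trend removed (adjusted p = 0.0975).

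Genes of ribosome biogenesis, a core class of known MYC targets, mostly did not pass, and no test links them to MYC in these data. Of 33 such genes 5 rose, 3 fell and 25 were not called, so 24.2% were called beside 47.4% of all tested genes, and the median log2 fold change was -0.03. GNL3 (nucleostemin) rose 1.35-fold and POLR1A, the catalytic subunit of RNA polymerase I, 1.66-fold, while LAS1L, which acts in rRNA processing, fell 1.49-fold (edgeR adjusted p = 0.000714, 0.00107 and 0.000844). FBL, the fibrillarin gene, had 91.4 ± 3.0 CPM with lipoic acid and 87.8 ± 3.73 CPM untreated and did not pass (adjusted p = 0.473). With the GC and length trend removed 7 of this list fell.

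Of 16 genes of nucleotide and polyamine synthesis 8 rose, 2 fell (1 without lipoic acid replicate 3) and 6 did not pass (median log2 0.29). The share called was 62.5%, beside 47.4% of all tested genes (24.2% higher and 23.3% lower). SHMT2, the mitochondrial serine hydroxymethyltransferase, had 229, 232 and 218 CPM with lipoic acid and 124, 132 and 120.0 CPM untreated, a 1.81-fold rise without overlap (edgeR adjusted p = 5.06e-06). SHMT2 is also a known target of the stress factor ATF4. IMPDH2, of guanine nucleotide synthesis, rose 1.33-fold, but SRM, spermidine synthase, fell 1.45-fold. ODC1, the first enzyme of polyamine synthesis and a textbook MYC target, rose 1.29-fold to 162 ± 2.19 CPM in lipoic acid libraries, against 125 ± 11.9 CPM in untreated libraries (adjusted p = 0.00221).

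Of 9 translation factors 5 rose and 2 fell (median log2 0.20), with PABPC1 1.32-fold higher and EIF5A and EIF4E 1.31-fold and 1.36-fold lower. Of these 9 genes 77.8% were called, beside 47.4% of all tested genes. The rises numbered 2 within the 4 libraries of even counts, 2 without lipoic acid replicate 1 or 2 or untreated replicate 3 and 3 without lipoic acid replicate 3. Of 13 glycolysis and transport genes 4 rose, 4 fell and 5 did not pass (median 0.10), so 61.5% were called beside 47.4% of all tested genes. SLC2A1, the glucose transporter GLUT1, fell 1.62-fold to 1428 ± 43.9 CPM in lipoic acid libraries, against 2306 ± 39.6 CPM in untreated libraries (edgeR adjusted p = 2.84e-06). TFRC, the transferrin receptor, rose 1.74-fold and SLC3A2, the heavy chain of amino acid transporters and also a known ATF4 target, 1.46-fold. LDHA, another known MYC target, did not pass (3378 ± 89.2 and 3451 ± 389.5 CPM, adjusted p = 0.744).

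Cell cycle genes also split. Of 12 tested cell cycle targets 5 rose, 2 fell and 5 did not pass (median log2 0.27), so 58.3% were called beside 47.4% of all tested genes. CUL1, a ubiquitin ligase scaffold, rose 1.51-fold, while the cyclin genes CCND2 and CCNE1 fell 1.48-fold and 2.02-fold. CCNE1 had 8.17, 7.22 and 6.86 CPM with lipoic acid and 17.2, 13.7 and 14.1 CPM untreated, with no overlap (edgeR adjusted p = 0.000382). Of 15 S-phase genes 4 rose and 2 fell (1 without any single library), so 40.0% were called beside 47.4% of all tested genes. CDC6, a replication licensing factor, had 26.7, 32.2 and 29.2 CPM with lipoic acid and 6.89, 9.64 and 7.51 CPM untreated. CDC6 rose 3.66-fold without overlap (adjusted p = 7.6e-06), GINS2, of the replicative helicase, rose 2.41-fold and TYMS, thymidylate synthase, fell 1.37-fold. Of 15 G2/M genes 4 rose, 0 fell and 11 did not pass, with CENPE, a kinetochore motor, 4.88-fold and BUB1 1.57-fold higher. The G2/M share called was 26.7%, beside 47.4% of all tested genes. By edgeR 1 G2/M gene was lower at an unadjusted p under 0.05, and DESeq2 and limma voom called 0 lower. The G2/M rises numbered 8 without untreated replicate 2 and 2 without untreated replicate 1 or 3 or lipoic acid replicate 2 or 3, so that count rested on single libraries.

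Of the tested genes that MYC is known to repress through MIZ1 (ZBTB17), most were not called. The list holds 10 genes, of which CDKN1C, CDKN2C, GADD45G and NDRG1 failed the filter on low counts and were not tested. Of the 6 tested genes 0 rose, 1 fell (NDRG2, 1.41-fold, edgeR adjusted p = 0.00141) and 5 were not called (median log2 0.07). Thus 16.7% were called, beside 47.4% of all tested genes. Beside the 0 rises by edgeR, 1 gene was higher at an unadjusted p under 0.05, DESeq2 called 1 and limma voom 2, and edgeR called 1 without untreated replicate 1 or 2. The falls numbered 3 without lipoic acid replicate 1 or untreated replicate 1 and 2 without any other single library. CDKN1A, which encodes the cell cycle inhibitor p21, had 739 ± 20.7 CPM with lipoic acid and 661 ± 52.5 CPM untreated (adjusted p = 0.0552).

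**Figure D4:**
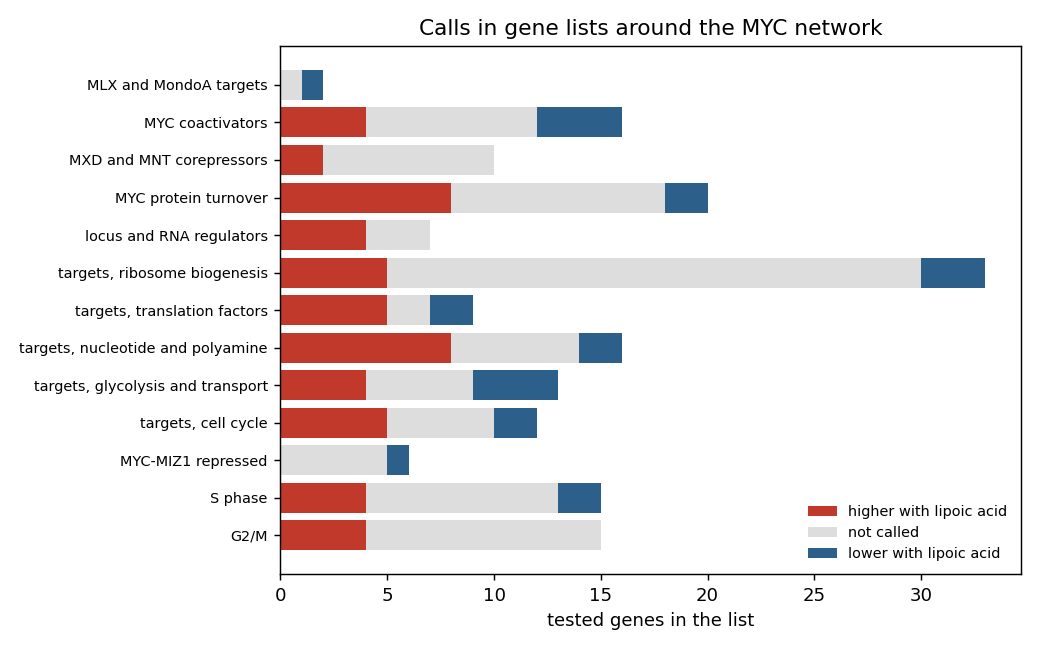
Number of tested genes in each list around the MYC network that were called higher (red), not called (grey) or called lower (blue) with lipoic acid. In the ribosome biogenesis list 25 of 33 genes were not called, and in the nucleotide and polyamine list 8 of 16 were called higher. Over all tested genes 47.4% were called, 24.2% higher and 23.3% lower.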

How the data were processed

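Counts per gene symbol were used as deposited. Per the submitters' processing notes the authors used HISAT2, featureCounts and DESeq2 with hg38, and versions, annotation, strand setting and the handling of ambiguous reads are not given in the sources used here. All 6 columns were used.

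The software was edgeR 4.0.16, DESeq2 1.42.0 and limma 3.58.1, under R 4.3.3. The filter was filterByExpr (13780 genes), and counts were scaled by TMM and tested as lipoic acid minus untreated with the quasi-likelihood F test, group being the only term, with Benjamini-Hochberg adjustment over all tested genes. Intervals are 95% intervals of that fit. Positions and lengths came from GENCODE 29 (GRCh38), which holds 99.4% of the symbols, and promoters from RefSeq (GRCh38.p14). Replicates differed beyond counting noise (chi-square per degree of freedom 3.16 to 21.2, even counts halved). With separate cultures not stated, p-values reflect spread between libraries that may be technical only.

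The members and lists were chosen with earlier results of these data known, and no list was tested as a set. The text names all members, up to 3 called genes per list with the lowest p and no overlap between groups, and the 2 genes nearest to each called member, those of MXI1 not being reported here. MGA, MLXIPL, TXNIP, FBXW7, ODC1, FBL, LDHA, CDKN1A, RAB24, PRELID1, PSMC3IP, MYCNOS and TFAP4 fall outside that rule and were chosen after their values were seen. CIP2A, in the turnover list, was not analysed here. The other settings are those in the closing part.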

Additional observations from a re-analysis of the deposited data

How the results depend on the processing

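MYC, MXD1, MXI1 and MXD4 kept their direction and call in all 20 other settings (log2 fold changes 1.61 to 1.86, 0.62 to 0.86, 0.59 to 0.77 and -0.78 to -0.65). They comprised scaling by upper quartile or by relative log expression, no filter on low counts, at least 1 CPM in a group, DESeq2, limma voom with quality weights, robust moderation, a replicate block, removal of the GC and length trend with and without that block, removal of mitochondrial genes, halving of counts, the libraries of even counts alone, and omission of each library. MXD3 lost its call within the even libraries (log2 0.52). Leaving out 1 library gave 0.65 to 0.93 for MXD3, -0.11 to 0.11 for MYCN, -0.132 to 0.0112 for MAX, -0.186 to 0.0313 for MNT, 3 to 4 members higher, and 1 lower. Members not called changed sign near 0: MYCN with voom (-0.0515), the replicate block (-0.00781) and halved even counts (-0.00258), MAX within the even libraries (0.0400), and MNT with the trend removed (0.0286, and 0.0236 with the block). MLX was called lower with the trend removed (-0.25, and -0.25 with the block), so 2 members were lower there and at an adjusted p under 0.1. The cause was not tested.

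Requiring a 2-fold change left 1 member higher and 0 lower, 1092 genes of the whole table higher and 817 lower, and, over all lists together, 20 genes higher and 6 lower. With the longest transcript as length, activators were 29.5% with lipoic acid and 24.6% untreated. Replicate numbers were not treated as pairing the samples, since deviations of same-numbered libraries correlated at only 0.06 to 0.08, although each library correlated best with its own number. The replicate block called 3354 genes higher and 3203 lower, against 3329 and 3205 without it, and called the same 5 members. MYCL had the lowest counts of the members, 60 to 158 per library.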

Other observations

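Other basic helix-loop-helix factors that bind E-box-like sequences were listed after the data were seen. Of 15 such genes that were tested 6 rose, 4 fell and 5 were not called with lipoic acid (median log2 fold change -0.06, beside -0.01 over all tested genes). The share called was 66.7%, beside 47.4% of all tested genes. The hypoxia factor genes HIF1A and EPAS1 moved in opposite directions: HIF1A rose 1.43-fold to 714 ± 37.9 CPM in lipoic acid libraries, against 499 ± 16.5 CPM in untreated libraries, and EPAS1 fell 1.36-fold to 465 ± 15.6 CPM, against 633 ± 8.86 CPM (SD, n = 3 each, edgeR adjusted p = 7.5e-05 and 8.32e-05). TFEC, a factor of the MITF and TFE group, had 3.54, 3.99 and 4.16 CPM with lipoic acid and 1.17, 1.13 and 0.665 CPM untreated, a 3.92-fold rise (adjusted p = 0.000564).

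TFAP4, which encodes AP4 and is known as a direct MYC target, had 6, 0 and 8 counts in the lipoic acid libraries and 42, 49 and 12 counts in the untreated libraries. It was lower in every lipoic acid library. TFAP4 passed the filter on low counts only through the untreated libraries, so no p-value is given for it. At these counts its fold change depends on the prior count. No test links TFAP4 to MYC in these data.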
